A study of Mus musculus with 6 samples.

Results

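The genes of insulin, AKT and mTOR signalling were followed in skeletal muscle of 6 mice. They are 32 genes listed by symbol, and 30 of them had a probe set that the platform table assigns to that gene alone, among 19938 genes measured. Where a gene had several such probe sets, the one with the highest mean over the 6 arrays stands for it. Rps6kb1 and Mapk3 were not analysed here. RNA of each mouse was read on a MoGene array, with 3 transgenic (TG) and 3 wild-type (WT) mice, and the title of the series names SOCS-3. The sources used here do not give the construct carried by the transgenic mice, the promoter that drives it, the strain, the age, the muscle taken or whether the mice had been fed or fasted. All values are log2 expression, so a difference of 1 is a doubling, and every difference is TG minus WT.

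Insulin binds a receptor tyrosine kinase that phosphorylates the insulin receptor substrates IRS1 and IRS2. These recruit the lipid kinase PI3K, whose product brings PDK1 and AKT to the membrane, and AKT then phosphorylates the Rab GTPase-activating proteins TBC1D4 and TBC1D1 so that the glucose transporter GLUT4 moves to the muscle surface. AKT also inhibits the kinase GSK3, which restrains glycogen synthesis, and the TSC complex, which holds back RHEB and the protein synthesis kinase mTOR. SOCS-3 is known as a feedback inhibitor that can bind the insulin receptor and direct IRS proteins to degradation.

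Skeletal muscle identity was clear on each array. The 15 muscle markers, among them Acta1, Ckm and Myh4, had a mean log2 level of 12.78 to 12.79 in TG. In WT it was 12.80 to 12.85, without overlap. Their summed levels of 17.59 to 17.61 in TG and 17.60 to 17.62 in WT overlapped. Of the 15, 3 were above 0 in TG minus WT. Groups did not overlap for Myh1 (0.06, SE 0.06), Myh2 (-0.30, SE 0.14) and Tnnt1 (-0.21, SE 0.08), as for 12.3% of all genes. Array medians over all probe sets lay between 5.98 and 6.04, and no array was a copy of another. Markers of other tissues were also read. All 7 measured adipocyte markers (of 8 listed) were above 0 in TG minus WT, with a log2 summed level of 11.38 to 11.51 in TG and 11.24 to 11.39 in WT. Their mean level was 6.92 to 7.08 in TG and 6.71 to 6.81 in WT, without overlap. Adipoq had the largest difference of the 7, at 0.64 (SE 0.09; limma, adjusted p = 0.299). Bone and osteoclast markers (5 of 6 measured) were above 0 in 4 of the 5, with summed levels of 8.55 to 9.90 in TG and 8.24 to 8.66 in WT, and the osteoclast genes Acp5 and Ctsk were higher on each TG array than on each WT array, by 0.69 (SE 0.21) and 0.57 (SE 0.18). Hepatocyte markers (11 of 12 measured) had summed levels of 9.07 to 11.84 in TG and 10.60 to 11.45 in WT, so the TG range enclosed the WT range. All 11 were below 0 in TG minus WT, but the groups overlapped for each and 0 had an unadjusted p under 0.05 (limma). Alb stood at 8.70, 10.67 and 6.29 in TG and at 8.99, 9.48 and 10.19 in WT. WT array 2 stood apart from the other WT arrays for 5 members, whose values are given with and without it. Fewer cells of a type and less RNA per cell cannot be told apart in tissue arrays.

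The upstream sequences of 4 members are shown, picked after their expression values had been seen. No link of a motif to expression was tested. Cblb and Tbc1d1 had the smallest p-values among the members, and Irs1 and Irs2 varied in opposite directions on 1 wild-type array. Each is the 250 bases before a RefSeq start (build GRCm38.p6), written 5′ to 3′ on the gene's strand. Capitals mark matches, on either strand, to an E-box (CACGTG), the core of an insulin response element (TGTTTTG), a FOXO motif (GTAAACA) or a STAT motif (TTCNNNGAA). A match is a string of letters, not a measured binding site.
Irs1, chr1:82291440-82291689, minus strand: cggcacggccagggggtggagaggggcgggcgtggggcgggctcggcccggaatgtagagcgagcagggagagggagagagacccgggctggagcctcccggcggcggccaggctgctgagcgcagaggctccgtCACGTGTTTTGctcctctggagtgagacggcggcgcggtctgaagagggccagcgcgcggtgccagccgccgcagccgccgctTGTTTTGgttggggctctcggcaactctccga
Irs2, chr8:11008930-11009179, minus strand: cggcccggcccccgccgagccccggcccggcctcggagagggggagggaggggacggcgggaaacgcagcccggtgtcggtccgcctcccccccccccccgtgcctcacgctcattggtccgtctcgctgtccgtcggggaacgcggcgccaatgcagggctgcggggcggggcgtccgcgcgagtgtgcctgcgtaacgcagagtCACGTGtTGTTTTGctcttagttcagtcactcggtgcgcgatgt
Cblb, chr16:52031299-52031548, plus strand: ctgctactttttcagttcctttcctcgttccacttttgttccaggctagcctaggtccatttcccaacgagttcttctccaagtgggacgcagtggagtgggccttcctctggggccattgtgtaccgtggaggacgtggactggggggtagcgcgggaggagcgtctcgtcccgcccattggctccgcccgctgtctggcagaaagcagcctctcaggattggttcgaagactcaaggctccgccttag
Tbc1d1, upstream start, chr5:64160010-64160259, plus strand: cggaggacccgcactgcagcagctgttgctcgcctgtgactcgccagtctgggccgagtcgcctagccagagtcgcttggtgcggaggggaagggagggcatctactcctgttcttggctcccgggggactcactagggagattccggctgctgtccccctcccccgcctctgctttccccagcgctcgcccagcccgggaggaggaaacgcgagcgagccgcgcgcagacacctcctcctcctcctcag
Tbc1d1, downstream start, chr5:64230107-64230356, plus strand: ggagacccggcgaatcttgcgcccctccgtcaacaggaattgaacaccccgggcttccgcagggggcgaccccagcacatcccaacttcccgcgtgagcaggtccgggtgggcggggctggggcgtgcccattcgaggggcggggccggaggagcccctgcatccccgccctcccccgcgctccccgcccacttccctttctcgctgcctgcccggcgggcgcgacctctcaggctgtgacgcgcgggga

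Both receptor substrate genes carried an E-box beside an insulin response element core. In Irs1 the E-box began 115 bases before the start and shared bases with a core that began 111 bases before it. A second core in the Irs1 window began 32 bases before the start. In Irs2 the E-box began 44 bases before the start and the core 37 bases before it, with 1 base between them. Of all 32851 windows of this length, 6.02% held the E-box and 5.56% the core. Both stood somewhere in 97 windows of 94 genes (0.295%), and in 7 of these windows they had at most 1 base between them, Irs1 and Irs2 included. That limit of 1 base was set after the Irs2 window had been seen, so the 7 windows describe it and measure no rarity. A promoter window was on hand for 26 of the 32 members, 36 windows in all. The E-box was also found in Rheb, the FOXO motif (3.17% of all windows) in Akt1, and the STAT motif (7.02%) in Akt2 and Mtor. None of the 4 motifs was found in the Cblb window or in either Tbc1d1 window.

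The comparison of TG with WT asked whether transcript levels along this pathway differed with the transgene. No member passed an adjusted p of 0.05 over all genes (limma with Benjamini-Hochberg adjustment, smallest adjusted p = 0.660), against 0.00502% of all genes, or 1 gene. At an unadjusted p under 0.05 there were 2 members, Cblb and Tbc1d1, both higher in TG. That is 6.67% of the 30, against 6.75% of all genes, so the count stands at the background. By direction, 2 members were higher against a background of 1.96%, and 0 were lower against 4.79%. Groups did not overlap for 5 members (16.7%, against 12.3% of all genes), 2 of them higher in TG (background 4.52%) and 3 lower (background 7.76%). Of the 30 differences 14 were above 0 and 16 below, with a median of -0.014 where the median of all genes was -0.016.

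The intervals show how large a difference these arrays leave room for. For 16 members the whole 95% interval lay within a 1.2-fold change either way, as it did for 38.5% of all genes. For 28 of the 30 it lay within a 1.5-fold change, as it did for 94.4% of all genes. Irs2 and Cblb were the members whose interval reached past 1.5-fold. Both fold limits were chosen after the data had been seen.

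**Figure D1:**
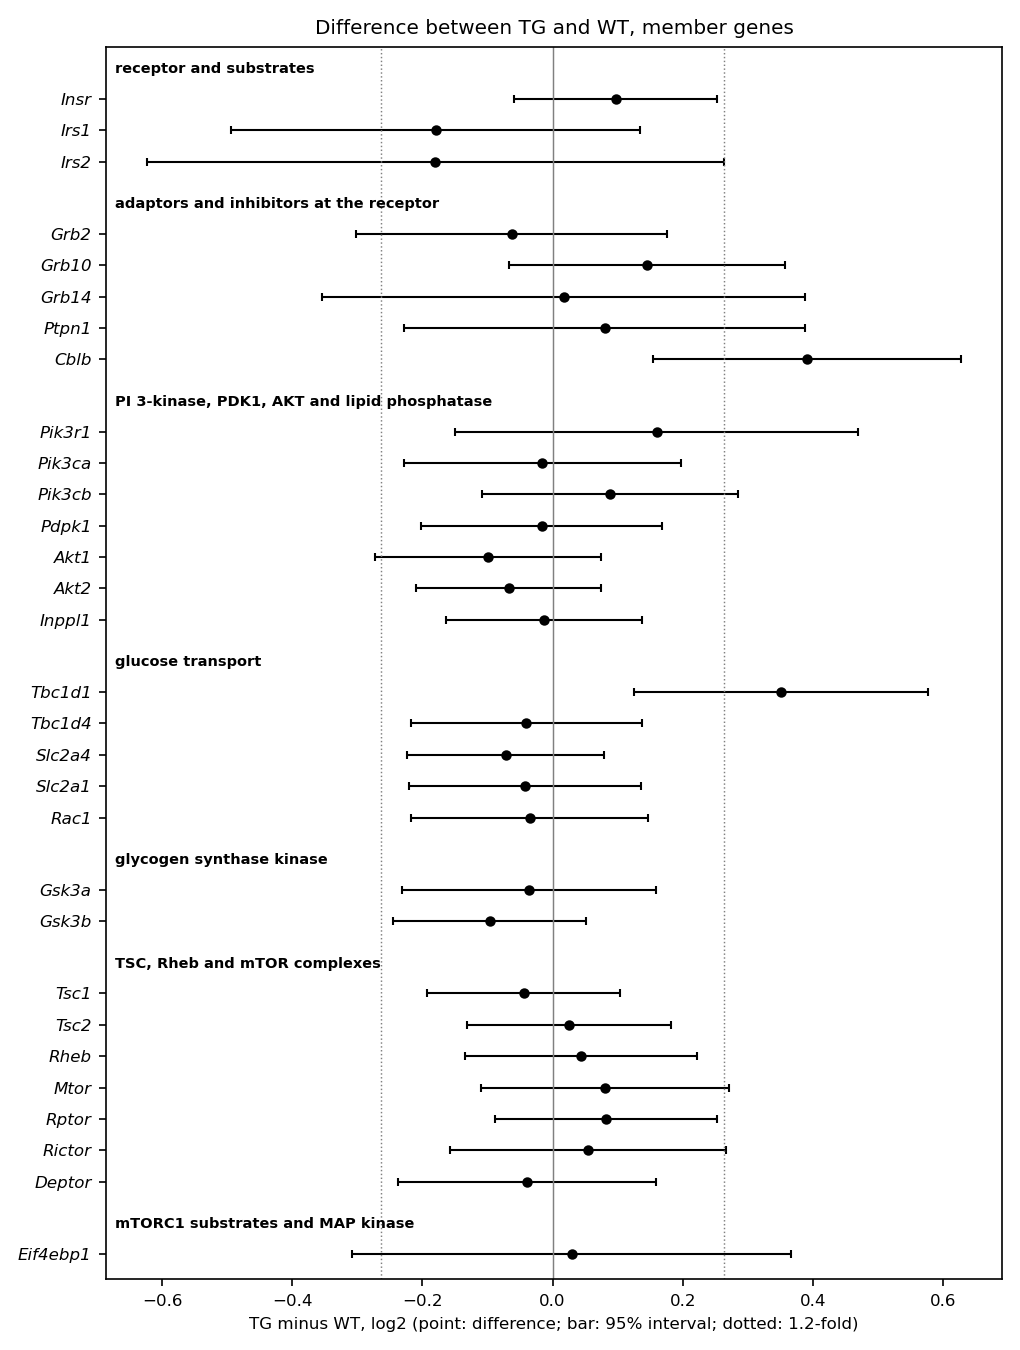
Difference between TG and WT in log2 expression (x axis) for the 30 measured member genes, grouped by role; points are differences, bars are 95% intervals from limma over 3 arrays per group, and dotted lines mark a 1.2-fold change. The intervals of Cblb and Tbc1d1 lie above 0, and the other 28 include 0.

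Insr, the receptor itself, was measured by 2 probe sets that gave like values. On the higher of these it stood at 10.51, 10.61 and 10.53 on TG arrays 1 to 3 and at 10.41, 10.44 and 10.51 on WT arrays 1 to 3, a difference of 0.10 (SE 0.07, 95% interval -0.06 to 0.25). The TG and WT values touched only at TG array 1 and WT array 3. Its second probe set differed by 0.09 (SE 0.07), again with overlap.

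Irs1, the first docking protein below the receptor, had values of 9.23, 9.43 and 9.04 in TG and 9.48, 9.18 and 9.58 in WT. The means were 9.23 ± 0.20 and 9.41 ± 0.21 (SD, n = 3 each) and differed by -0.18 (SE 0.13, interval -0.49 to 0.14), with WT array 2 lying among the TG values. A second Irs1 probe set, lower in level, gave 0.05 (SE 0.20), the opposite sign. Irs2, the partner docking protein, stood at 7.96, 7.79 and 8.12 in TG and at 7.91, 8.59 and 7.91 in WT. Its difference was also -0.18, with the widest error of any member (SE 0.19, interval -0.62 to 0.26). It rested on WT array 2, since WT arrays 1 and 3 lay inside the TG range, and without that array the difference was 0.05.

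Among the adaptors and inhibitors at the receptor, Cblb had the largest difference of any member. It encodes a ubiquitin ligase known to target IRS1 in muscle and to restrain T cell activation. Cblb stood at 8.49, 8.78 and 8.54 in TG and at 8.19, 8.34 and 8.11 in WT. Each TG value lay above each WT value, and the means of 8.60 ± 0.16 and 8.21 ± 0.12 (SD, n = 3 each) differed by 0.39 (SE 0.10, interval 0.15 to 0.63), or 1.31-fold, with a limma adjusted p of 0.660. It stayed between 0.30 and 0.45 under every alternative run, with adjusted p from 0.462 to 0.914. Lymphocyte markers (6 of 7 measured) had summed levels of 7.32 to 7.65 in TG and 7.54 to 7.67 in WT. Their mean level was 4.53 to 4.74 in TG and 4.79 to 4.82 in WT, without overlap, and 2 of the 6 were above 0. Macrophage markers (8 of 8) had summed levels of 10.30 to 10.67 in TG and 10.07 to 10.60 in WT. Their mean level was 6.79 to 7.12 in TG and 6.59 to 6.93 in WT, with overlap, and all 8 were above 0 in TG minus WT. The values of the adipocyte and of the bone and osteoclast markers are given above. Whether RNA of any of these cells took part in the Cblb difference, or in that of Tbc1d1, was not tested. Nor was any link of either difference to those of the muscle markers Myh1, Myh2 and Tnnt1, also given above.

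The other receptor-proximal members had overlapping groups. Grb10, an adaptor that binds and inhibits the insulin receptor and is itself an mTORC1 substrate, stood at 8.61, 8.39 and 8.53 in TG and 8.23, 8.45 and 8.42 in WT, a difference of 0.15 (SE 0.09). Grb14, its relative with the same inhibitory role, differed by 0.02 (SE 0.16), and its WT values of 8.94, 8.50 and 9.14 lay on both sides of the TG values of 9.01, 8.82 and 8.80. Ptpn1, the tyrosine phosphatase PTP1B that switches the receptor off, differed by 0.08 (SE 0.13). Grb2, which links the receptor to the RAS and MAP kinase branch, differed by -0.06 (SE 0.10).

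The lipid kinase step gave small values. Pik3r1, the regulatory subunit of PI3K, stood at 8.65, 8.32 and 8.44 in TG and 8.17, 8.57 and 8.18 in WT, a difference of 0.16 (SE 0.13) in which WT array 2 again lay apart from the other WT arrays and within the TG range. With 1 array left out it ran from 0.070 (TG array 1) to 0.29 (WT array 2), and it was 0.089 and 0.098 when WT array 1 or WT array 3 was the one left out. The catalytic subunit genes Pik3ca and Pik3cb differed by -0.02 (SE 0.09) and 0.09 (SE 0.08), with overlap. Pdpk1, which encodes PDK1, differed by -0.02 (SE 0.08), and Inppl1, whose product SHIP2 removes a phosphate from the PI3K lipid, by -0.01 (SE 0.06).

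Akt1 stood at 9.37, 9.56 and 9.53 in TG and 9.55, 9.59 and 9.60 in WT, a difference of -0.10 (SE 0.07). Akt2, the main AKT of insulin-stimulated glucose uptake, had values of 11.88, 11.91 and 11.93 in TG and 11.98, 11.96 and 12.00 in WT by the probe set with the higher mean. Each TG value was below each WT value, but the difference was -0.07 (SE 0.06), with an interval of -0.21 to 0.07. This probe set stood out in another respect. Probe set numbers on the array largely follow position along the chromosomes, and for 96.7% of those that could be checked most of the 10 nearest numbers belonged to genes on the named gene's own chromosome. For this Akt2 probe set 0 of 10 did, since all 10 neighbours were genes of chromosome 11 while Akt2 lies on chromosome 7. The other Akt2 probe set had 10 of 10 neighbours on chromosome 7, and its values of 11.49, 11.52 and 11.68 in TG and 11.60, 11.52 and 11.59 in WT overlapped, with a difference of -0.01 (SE 0.07). With that probe set in place, 4 members had groups that did not overlap. Every other member's probe sets had at least 8 neighbours on the gene's chromosome.

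**Figure D2:**
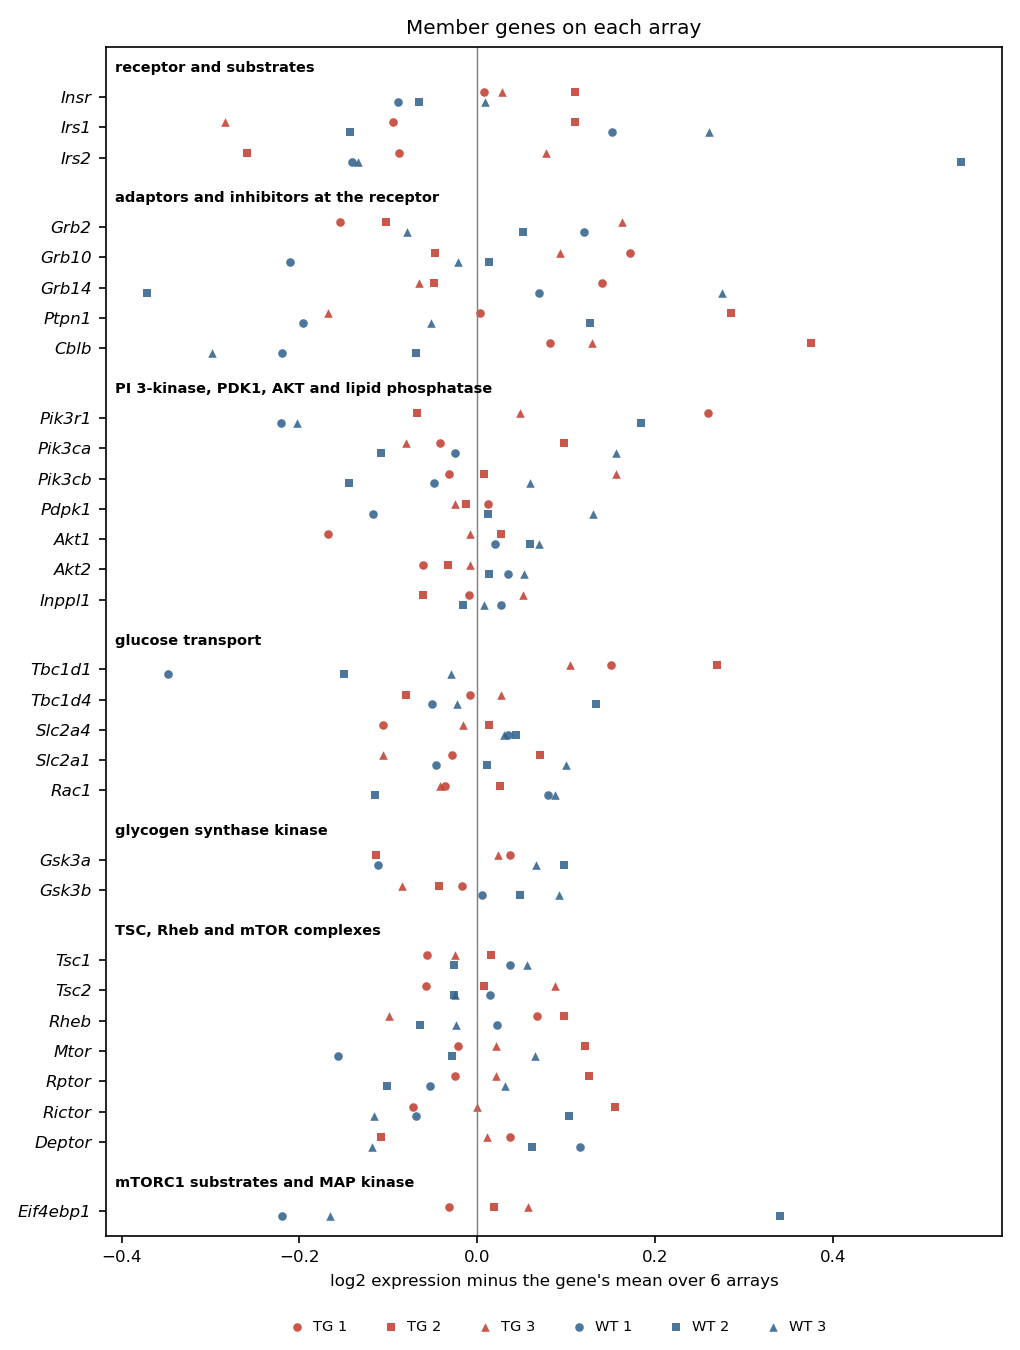
Log2 expression of the 30 member genes on each of the 6 arrays, drawn as the distance from the gene's mean over all arrays (x axis); red is TG, blue is WT, and circle, square and triangle are replicates 1, 2 and 3. Most values lie close to the line at 0, the TG points of Cblb and Tbc1d1 lie to the right of their WT points, and WT array 2 (blue square) stands apart for Irs2, Grb14 and Eif4ebp1.

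At the glucose transport step, Tbc1d1 was higher on each TG array than on each WT array, while the groups of its relative Tbc1d4 overlapped. Both encode Rab GTPase-activating proteins that hold GLUT4 inside the cell until they are phosphorylated, TBC1D4 chiefly by AKT and TBC1D1 also by AMPK. Tbc1d1 stood at 10.68, 10.80 and 10.64 in TG and at 10.19, 10.38 and 10.50 in WT. The groups did not overlap, and the means of 10.71 ± 0.09 and 10.36 ± 0.16 (SD, n = 3 each) differed by 0.35 (SE 0.10, interval 0.12 to 0.58), or 1.28-fold, with a limma adjusted p of 0.660. Under the alternatives it ranged from 0.26 to 0.42, with adjusted p from 0.423 to 0.912. Tbc1d4 had values of 7.04, 6.97 and 7.07 in TG and 7.00, 7.18 and 7.02 in WT, which overlapped, and differed by -0.04 (SE 0.08). The contrast of the pair within each array, Tbc1d1 minus Tbc1d4, averaged 3.68 ± 0.14 for TG and 3.29 ± 0.16 for WT (SD over 3 arrays). The difference was 0.39 with no overlap between groups (exact two-sided permutation test, p = 0.10, the smallest that 3 arrays against 3 can give). Each such contrast is on the log2 scale of the 2 probe sets and says nothing of which gene is the more abundant.

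Slc2a4, which encodes GLUT4, was held within narrow limits. Its values were 12.07, 12.19 and 12.16 in TG and 12.21, 12.22 and 12.20 in WT. Each TG value was below each WT value, by a mean of -0.07 (SE 0.06, interval -0.22 to 0.08), and this order was lost under quantile normalization and with a common array median. Slc2a1, the GLUT1 transporter of basal uptake, differed by -0.04 (SE 0.08), and Rac1, the GTPase that remodels actin during GLUT4 movement, by -0.03 (SE 0.08), both with overlap.

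The glycogen synthase kinases were close in both groups. Gsk3b stood at 9.47, 9.44 and 9.40 in TG and 9.49, 9.53 and 9.58 in WT, so each TG value was below each WT value, with a difference of -0.10 (SE 0.06, interval -0.25 to 0.05). Gsk3a differed by -0.04 (SE 0.08), with overlap.

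In the mTOR branch the differences ran from -0.04 to 0.08, and in each gene the groups overlapped. Mtor, the kinase, differed by 0.08 (SE 0.08). Rptor, which defines mTORC1, and Rictor, which defines mTORC2, the complex that phosphorylates AKT, differed by 0.08 (SE 0.07) and 0.05 (SE 0.09), and Deptor, an inhibitor found in both complexes, by -0.04 (SE 0.08). The upstream brakes Tsc1 and Tsc2 differed by -0.04 (SE 0.06) and 0.02 (SE 0.07), and Rheb, the GTPase they inactivate, by 0.04 (SE 0.08). Eif4ebp1, which encodes the translation inhibitor 4E-BP1 that mTORC1 phosphorylates, stood at 9.45, 9.50 and 9.53 in TG and 9.26, 9.82 and 9.31 in WT. Its TG values sat between the WT values, and the difference was 0.03 (SE 0.14).

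**Figure D3:**
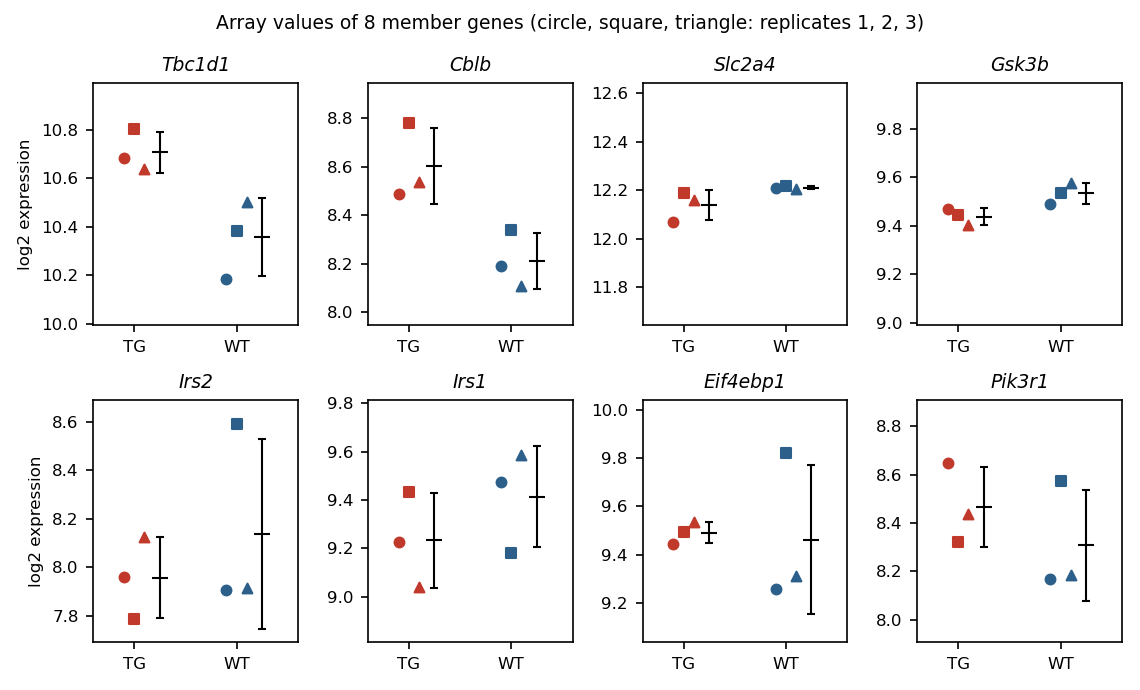
Log2 expression (y axis, each panel spanning 1 log2 unit) of 8 member genes in TG (red) and WT (blue); symbols are arrays, and the bar beside them is the mean with the SD over 3 arrays. The groups of Tbc1d1 and Cblb are apart with TG higher, those of Slc2a4 and Gsk3b are apart by little with TG lower, and in the lower row WT array 2 (square) lies away from the other WT arrays.

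WT array 2 stood apart for several members, as found after the values had been seen. Against the mean of WT arrays 1 and 3, WT array 2 was 0.68 higher for Irs2, 0.53 higher for Eif4ebp1 and 0.40 higher for Pik3r1, and for Grb14 and Irs1 it differed by -0.54 and -0.35. WT arrays 1 and 3 differed from each other by 0.01 for Irs2, 0.05 for Eif4ebp1, 0.02 for Pik3r1, 0.21 for Grb14 and 0.11 for Irs1. These 5 members were the ones past 0.3 on WT array 2, where 8.53% of all genes were past it. Taken the same way, 2 members were past it on each of WT arrays 1 and 3, with 8.31% and 10.2% of all genes. Among the other pathway genes, the largest distances on that array were 1.86 for Ddit4, which encodes the mTORC1 inhibitor REDD1, with WT values of 8.70, 10.25 and 8.08, then 0.84 for Ppp1r3c, a glycogen-targeting phosphatase subunit, and 0.61 for Foxo1, the transcription factor that AKT excludes from the nucleus. Foxo1 stood at 8.41, 8.46 and 8.48 in TG and at 8.01, 8.69 and 8.15 in WT.

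Leaving out WT array 2 moved these members. At an unadjusted p under 0.05 there were then 4 members, with Pik3r1 at 0.29 (SE 0.11) and Eif4ebp1 at 0.21 (SE 0.07) beside Cblb and Tbc1d1, where 6.23% of all genes reached that p, and the adjusted p of both added genes was 0.790 (limma). Irs1 stood at -0.30 (SE 0.13) without it, Grb14 turned from 0.02 to -0.16 (SE 0.11), and Foxo1 went from 0.17 to 0.37 (SE 0.08; limma, adjusted p = 0.722). WT array 2 was singled out on the values of Pik3r1, Eif4ebp1, Irs1 and Grb14 among others, and Foxo1 was named for its distance there. The differences and p-values given for these genes without that array are therefore no test of them. Among the transgenic mice, TG array 2 was the one farthest from its group's median for 17 of the 30 members (56.7%), against 6378 of all 19938 genes.

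Contrasts between related members were taken in 9 pairs, each within the array so that array-wide shifts drop out. Apart from Tbc1d1 and Tbc1d4, the groups overlapped in all 8 other pairs, with exact permutation p from 0.3 to 1, and no pair passed after adjustment over the 9 (smallest adjusted p = 0.9). Irs1 minus Irs2 averaged 1.28 ± 0.37 for TG and 1.28 ± 0.60 for WT (SD over 3 arrays). The WT value was 1.57 and 1.67 on arrays 1 and 3 but 0.59 on array 2, while the TG arrays lay at 1.27, 1.65 and 0.92. Grb10 minus Grb14 had the same feature, at -0.71, -0.04 and -0.72 in WT and -0.40, -0.43 and -0.27 in TG. Gsk3a minus Gsk3b differed by 0.06 (SE 0.07) and Slc2a4 minus Slc2a1 by -0.03 (SE 0.07). Akt1 minus Akt2 differed by -0.03 (SE 0.05) with the Akt2 probe set whose neighbours lie on chromosome 11, and by -0.062 with the mean of the 2 Akt2 probe sets.

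**Figure D4:**
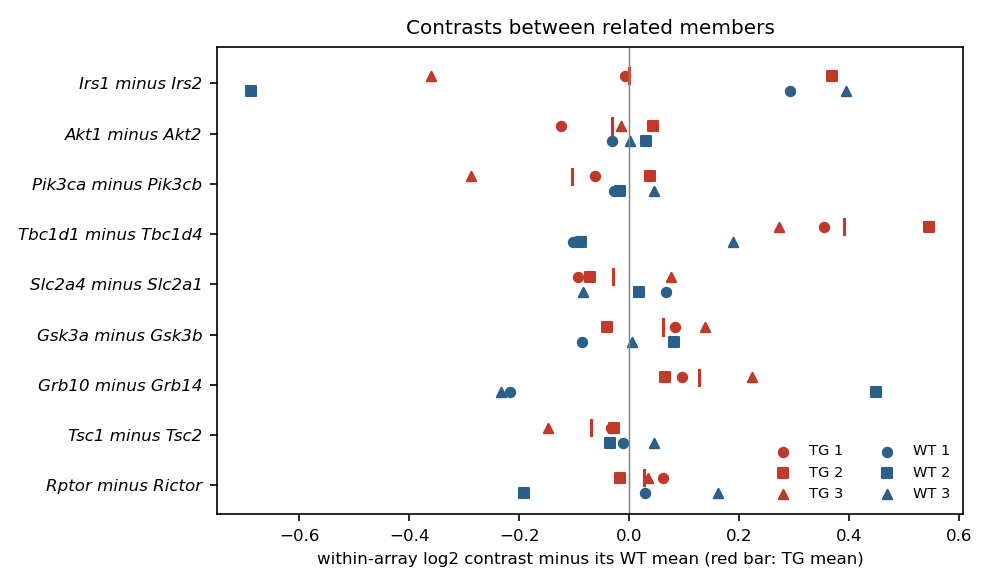
Within-array log2 contrast of 9 pairs of related members, minus the mean of that contrast over the 3 WT arrays (x axis); red is TG, blue is WT, symbols are replicates and the red bar is the TG mean. The 3 TG points of Tbc1d1 minus Tbc1d4 lie above all 3 WT points, and WT array 2 (blue square) lies apart for Irs1 minus Irs2 and Grb10 minus Grb14.

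Of 106 other genes of the pathway, 94 were measured. None passed over all genes (limma, smallest adjusted p = 0.660), 0 were higher and 3 were lower at an unadjusted p under 0.05 (3.19%, against 6.75% of all genes), and their median difference was 0.01. The 3 were Srebf1, Socs3 and Trib3. Srebf1, the insulin-induced lipogenic factor SREBP-1, stood at 8.29, 8.06 and 8.42 in TG and at 8.64 on each WT array, a difference of -0.38 (SE 0.10). Socs3, the gene of the series title, stood at 7.12, 7.25 and 7.07 in TG and 7.43, 7.41 and 7.37 in WT (difference -0.26, SE 0.07). These values are of its probe set with the highest mean, and the mean of its probe sets differed by -0.24 (SE 0.06). What its probe sets cover relative to the transgene is not given, so these values check no label. Trib3, a pseudokinase that can bind AKT, differed by -0.21 (SE 0.08) with no overlap between groups. By branch, values above 0 were found for 5 of 22 receptor-level and feedback genes, 11 of 15 PI3K and AKT genes, 12 of 18 glucose transport and glycogen genes, 14 of 27 mTOR genes, 4 of 7 RAS and MAP kinase genes and 4 of 5 FOXO and SREBP genes, beside 8728 of all 19938 genes.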

How the data were processed

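RNA was extracted with Trizol and RNeasy columns and labelled with biotin, per the labels' protocols. The deposited log2 values cover 35557 probe sets on 6 arrays. That they are log2 follows from their range, and the sources used here do not say how the authors summarized or normalized them. They were taken as deposited, and signal over background was not assessed. The platform table gave 1 symbol for 21789 probe sets, several for 1621 and none for 12147, and only the first kind was named. Replicate numbers follow the order of deposit and pair no mice.

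A linear model was fitted to all 19938 genes (limma 3.58.1, R 4.3.3, lmFit then eBayes, two-sided, without trend), with Benjamini-Hochberg adjustment over all of them and a threshold of 0.05. SE and 95% intervals of genes come from that fit and ± is the SD. For second probe sets the SE comes from the same model fitted to all 21789 probe sets with 1 symbol. Where an array was left out, it comes from a fit to the remaining arrays. The SE of a pair contrast comes from the variance within each group over its 3 arrays. Pair contrasts were tested by exact permutation over arrays. Precision is limited by 3 arrays per group. The text names all members, Socs3 and up to 4 other pathway genes per direction by smallest unadjusted p under 0.05; Ddit4, Ppp1r3c and Foxo1 were named after their values were seen. The members and lists were chosen with earlier results of these data known. Alternatives covered variance moderation, array weights, a level filter, other probe sets and their mean, 2 normalizations and each array left out; Akt2 from its other probe set was added after seeing the data. Simulation used 5 datasets with the means and SDs of these genes, independent normal noise and 200 changed genes among 19938. In them 49.2% of genes shifted by a log2 of 0.5 were called, and 86.8% of those shifted by 1. The 200 planted changes ease the adjusted threshold. The comparison itself called 1 gene, so these shares cannot be read as the share of such shifts it would call. Promoter sequences are RefSeq's (GRCm38.p6). Figures used matplotlib 3.10.9.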

Additional observations from a re-analysis of the deposited data

How the results depend on the processing

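With 3 mice per group, differences near 0.1 could not be told from 0. No member passed an adjusted p of 0.05 under any alternative (limma, smallest 0.423). Of 393 member values under alternatives 370 kept their sign, but many of them could not turn. The intensity trend, robust moderation and the level filter leave each member's difference as it was. The mean of the probe sets does so for all but the 3 members with several probe sets. Cblb and Tbc1d1 were at an unadjusted p under 0.05 in each setting run. The count of all genes called was 7 with an intensity trend, 2 among genes above the median level, and 0 with robust moderation, with a common array median and without any 1 array. Members at an unadjusted p under 0.05 numbered 2 to 4 with 1 array left out, 4 without WT array 2. Members whose groups did not overlap numbered 6 to 10 with 1 array left out, where fewer arrays make this easier (20.6% to 25.1% of all genes); it was 8 without WT array 1 and 10 without WT array 2 or 3. Other pathway genes at that p numbered 5 among genes above the median level, where 6.88% of the 9969 genes kept reached that p. How many of the 94 other pathway genes were kept there was not counted. With 1 array left out they numbered 2 to 8 (TG array 2: 5, TG array 3: 7, WT array 2: 8). In those 3 settings 6.36%, 7.85% and 6.23% of all genes reached that p. The cause of these shifts was not tested. The median of all genes moved from -0.016 to 0.003 with a common array median.

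Signs turned with a common array median for Pik3ca (0.0036), Pdpk1 (0.0026), Inppl1 (0.0065), and by its other probe set for Irs1 (0.050). With 1 array left out they turned for Grb14 (-0.16 to 0.16), Pik3ca (-0.074 to 0.058), Akt1 minus Akt2 (-0.070 to 0.014), Slc2a4 minus Slc2a1 (-0.082 to 0.0039), Ptpn1 (-0.042 to 0.18), Inppl1 (-0.042 to 0.015), Gsk3a (-0.10 to 0.012), Rictor (-0.0089 to 0.12), Deptor (-0.11 to 0.0082), Irs1 minus Irs2 (-0.34 to 0.20), Tsc2 (-0.013 to 0.060), Eif4ebp1 (-0.073 to 0.21), Irs2 (-0.30 to 0.047), Tbc1d4 (-0.076 to 0.016), Rptor minus Rictor (-0.069 to 0.11), Pdpk1 (-0.080 to 0.044), Rac1 (-0.10 to 0.00038).

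No paired analysis was possible because the labels give no replicate numbers shared between the groups.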
